A study of Homo sapiens with 15 samples.

Results

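A set of 10 genes that encode proteins secreted by the yolk sac endoderm and the liver were followed through the differentiation of the human embryonic stem cell line H1, an established line, towards heart muscle. They are AFP, ALB, APOA1, APOA2, APOB, TTR, FGA, FGB, FGG and SERPINA1, 10 of the 48777 genes in the deposited tables, and each was found by its Ensembl identifier and its GENCODE symbol. The genes were chosen by name after levels of these libraries had been seen, with days 11 and 20 and the level of AFP on those days in view, so the values of those 2 days are given as a description. Bulk RNA-seq (total RNA depleted of ribosomal RNA) was made on days 0, 4, 9, 11 and 20, with 3 libraries per day labelled as biological replicates and 15 in all. On day 20 the libraries of plate 2 and plate 2_3 carry the same plate number, and they were treated as separate replicates. Whether these libraries are independent of each other is not given in the labels. All groups were H1 cells on the laminins LN521 and LN221, and the deposited sample table lists L521 alone for day 0. Day 0 cells were kept in Nutristem medium. CHIR99021, which activates Wnt signalling, was given for 1 day once the dishes were confluent on day 4. IWP2, which blocks Wnt secretion, was given for 2 days from day 7, both in medium with B27 without insulin. The methods name the same medium for the changes on days 9 and 11 and give none for the days from then to day 20. The libraries called day 9 here carry that day in their labels, whereas the methods name day 7. All libraries come from 1 cell line, and no sort or selection of cells is described for them.

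Cells of the visceral endoderm and yolk sac are the first to make plasma proteins in the embryo, before the liver takes this role over. Alpha-fetoprotein (AFP) is the main plasma protein of the fetus and is replaced after birth by its relative albumin (ALB). Apolipoproteins carry lipids in lipoprotein particles, transthyretin (TTR) carries thyroid hormone and retinol-binding protein, the 3 fibrinogen chains (FGA, FGB, FGG) form the clotting protein, and alpha-1-antitrypsin (SERPINA1) inhibits neutrophil elastase. In hepatocytes the genes of these proteins are known targets of HNF4, FOXA and C/EBP factors. In bulk libraries, fewer cells of a type and less RNA per cell cannot be told apart.

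The libraries held 11990302 to 33469703 counted reads, with a median of 22867831. One library stood apart. The day 20 library of plate 2_3 had an RNA integrity number of 6.1, against 8.8 to 10 for the others, and reads on 48230 genes, against 30886 to 39551 in the others. In it all of 174 coding genes without expression on the earlier days (at least 2000 bases long, at most 2 counts in the 12 libraries of days 0 to 11 together) had reads, with a median of 10.95 reads per kb, which is taken as its background. The median was 0.68 reads per kb in the day 20 library of plate 6_1 and 0 in the other 13 libraries. Tests of the members on day 20 and the ranges of their ratios to AFP are therefore given with and without the library of plate 2_3. Other results on day 20 include it unless stated. Pluripotency markers (POU5F1, NANOG, SOX2, DNMT3B, LIN28A, TDGF1) summed to 6095 to 8829 TPM on day 0 and to 97.8 to 132 TPM on day 20. The 12 cardiomyocyte markers summed to 40.3 to 48.8 TPM on day 0, to 7227 to 27411 TPM on day 11 and to 6916 to 28417 TPM on day 20.

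Of the 10 genes, 5 lie in a pair of clusters on chromosome 4 (GRCh38, GENCODE v44). ALB (73397114 to 73421482, + strand) and AFP (73431138 to 73456174, + strand) are 9655 bases apart with no coding gene between them. FGB (154563011 to 154572807, + strand) and FGA (154583126 to 154590742, − strand) are 10318 bases apart, and FGG (154604134 to 154612967, − strand) follows FGA after 13391 bases. APOA2 lies on chromosome 1 (161222292 to 161223631, − strand), APOB on chromosome 2 (21001429 to 21044073, − strand), APOA1 on chromosome 11 (116835751 to 116837622, − strand), SERPINA1 on chromosome 14 (94376747 to 94390693, − strand) and TTR on chromosome 18 (31557009 to 31598833, + strand). Exons of APOA1 overlap 123 bases of the antisense gene APOA1-AS, and those of APOB overlap 169 bases of an unnamed gene on the opposite strand. The library kit keeps the strand, while whether the counting used it is not given in the sources used here.

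For 7 of the 10 genes (AFP, ALB, APOA2, FGA, FGB, FGG and SERPINA1) the RefSeq promoter table (GRCh38.p14) held the bases before the transcription start. Windows of 250 bases before the start are shown for 3 genes that stayed low through day 9 (AFP, ALB, SERPINA1) and for 3 that were already higher on day 9 (FGB, FGA, APOA2), so that both groups can be read side by side. Where the table lists 2 starts (FGB, SERPINA1), the one farther along the gene is shown. Capitals mark matches, on either strand, to 4 short motifs. The motif of the nuclear receptor HNF4 was searched as CAAAGTNCA. The forkhead motif of the FOXA factors was searched as TGTTTNC, that of the C/EBP factors as TTNNGCAA, and that of the GATA factors as AGATAA.
AFP (chr4:73435971-73436220, + strand): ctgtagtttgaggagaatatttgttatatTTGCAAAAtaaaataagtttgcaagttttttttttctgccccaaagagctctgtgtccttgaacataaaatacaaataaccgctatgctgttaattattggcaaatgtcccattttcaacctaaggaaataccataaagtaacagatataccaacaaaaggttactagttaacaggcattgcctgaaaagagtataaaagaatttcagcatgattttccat
ALB (chr4:73404037-73404286, + strand): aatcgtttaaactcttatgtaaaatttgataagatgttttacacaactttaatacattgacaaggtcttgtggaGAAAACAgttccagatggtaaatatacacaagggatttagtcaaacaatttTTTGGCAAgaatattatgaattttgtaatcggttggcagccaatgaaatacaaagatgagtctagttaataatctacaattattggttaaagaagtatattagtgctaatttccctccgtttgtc
SERPINA1 (chr14:94388603-94388852, - strand): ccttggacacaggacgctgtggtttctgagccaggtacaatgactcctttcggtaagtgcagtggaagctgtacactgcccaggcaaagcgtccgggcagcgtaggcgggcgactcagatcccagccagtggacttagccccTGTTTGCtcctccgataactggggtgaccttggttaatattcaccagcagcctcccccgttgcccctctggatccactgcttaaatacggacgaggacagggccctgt
FGB (chr4:154562761-154563010, + strand): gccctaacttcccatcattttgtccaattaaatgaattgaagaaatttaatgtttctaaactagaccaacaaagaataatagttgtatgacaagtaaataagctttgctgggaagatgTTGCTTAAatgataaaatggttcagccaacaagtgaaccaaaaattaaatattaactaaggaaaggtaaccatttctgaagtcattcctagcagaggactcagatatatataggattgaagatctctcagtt
FGA (chr4:154590743-154590992, - strand): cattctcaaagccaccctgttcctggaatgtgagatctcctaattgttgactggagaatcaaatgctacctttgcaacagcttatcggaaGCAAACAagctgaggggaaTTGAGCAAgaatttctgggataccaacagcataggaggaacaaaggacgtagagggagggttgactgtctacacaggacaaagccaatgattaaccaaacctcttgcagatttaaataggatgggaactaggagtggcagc
APOA2 (chr1:161223629-161223878, - strand): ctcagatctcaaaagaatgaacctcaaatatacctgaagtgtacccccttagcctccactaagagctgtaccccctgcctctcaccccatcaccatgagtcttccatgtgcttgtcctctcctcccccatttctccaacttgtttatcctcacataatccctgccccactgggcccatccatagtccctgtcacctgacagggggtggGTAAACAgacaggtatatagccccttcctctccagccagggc
The FOXA motif was found in ALB, SERPINA1, FGA and APOA2 (15.5% of the 35116 windows of the same length in the table) and the C/EBP motif in AFP, ALB, FGB and FGA (9.1% of all windows). The HNF4 motif (0.9% of all windows) was in none of the 7, and the GATA motif (9.2% of all windows) was in FGG, which had no other match. The C/EBP match ended 214 bases before the start in AFP and lay 125 to 118 bases before it in ALB, 132 to 125 in FGB and 141 to 134 in FGA. The FOXA match lay 176 to 170 bases before the start in ALB, 108 to 102 in SERPINA1, 160 to 154 in FGA and 42 to 36 in APOA2. No motif match overlapped another. Both motifs were thus found among the genes that were low on day 9 and among those that were not. A match is a run of letters and not a measured binding site.

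Together the 10 genes took 0.0006% to 0.0016% of all TPM (a level per gene length, scaled to the same total in each library) in the libraries of days 0 and 4. They took 0.0461%, 0.146% and 0.0376% in the day 9 libraries of plate 2, plate 6_1 and no plate number. On day 11 they took 0.22% in the library of plate 2, 0.0997% in plate 5 and 0.343% in plate 6. On day 20 they took 2.34% in plate 2, 0.093% in plate 2_3 and 2.58% in plate 6_1. The day 20 library of plate 2_3 thus lay below both others of its day and below all 3 of day 11. AFP alone made up 0.24% to 0.62% of the members' TPM on day 9, 3.58% to 16.9% on day 11 and 55.1% to 59% on day 20. The share of AFP on day 20 was therefore alike in the 3 libraries, although the sum differed. The mean level on day 20 was highest for AFP (9499 TPM), followed by SERPINA1 (2241), APOA1 (1816), APOA2 (980), FGB (808), FGA (391), APOB (359), TTR (316), FGG (179.5) and ALB (110), and for every gene the SD over the 3 libraries was larger than the distance to the next lower level.

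**Figure D1:**
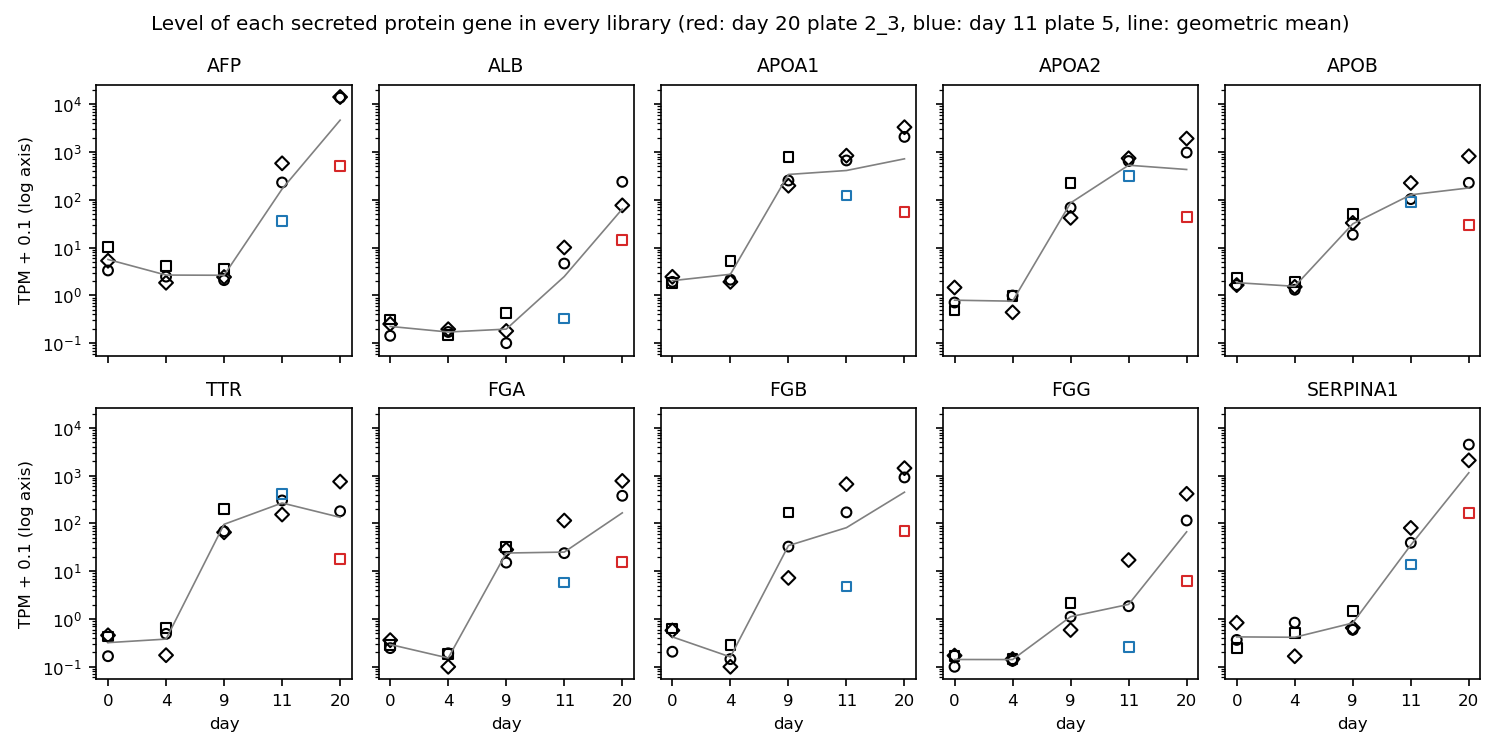
Level of each gene in all 15 libraries (TPM + 0.1 on a log axis, 3 libraries per day). Circles, squares and diamonds are the libraries of a day in the order given in the text, and the line joins the geometric means. APOA1, APOA2, APOB, TTR, FGA and FGB stand higher on day 9 than on day 4, AFP, ALB and SERPINA1 first on day 11, and the red square (day 20, plate 2_3) is the lowest of its day for all 10 genes.

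AFP stood at 3.23, 10.1 and 5.22 TPM in the 3 day 0 libraries and at 2.37, 4.07 and 1.74 TPM on day 4 (plates 1, 2 and 5). The day 9 values were 1.99, 3.54 and 2.32 TPM in plate 2, plate 6_1 and the library of no plate number. These 3 days overlapped. The day 11 values were 231 TPM in plate 2, 35.8 TPM in plate 5 and 581 TPM in plate 6, all above every earlier library. On day 20 it reached 13772 TPM in plate 2 and 14210 TPM in plate 6_1, where it ranked 2 and 3 among all genes of its library, and 516 TPM in plate 2_3, where it ranked 137. Days 11 and 20 overlapped through the library of plate 2_3, which lay below the day 11 library of plate 6. Its mean over the 3 libraries was 283 ± 276 TPM (SD, n = 3) for day 11. For day 20 the mean was 9499 ± 7783 TPM (SD, n = 3).

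ALB, the main plasma protein of the adult, had at most 6 reads in any library of days 0, 4 and 9. On day 11 it stood at 4.54 TPM in plate 2, 0.23 TPM (4 reads) in plate 5 and 9.98 TPM in plate 6, so that plate 5 remained within the range of the earlier days. On day 20 it stood at 238 TPM in plate 2, 14.6 TPM in plate 2_3 and 76.6 TPM in plate 6_1, each above all libraries of day 11. AFP stood above ALB wherever both had at least 10 reads. The AFP level was 50.9 and 58.3 times that of ALB on day 11 (plates 2 and 6) and 57.8, 35.4 and 186 times on day 20 (plates 2, 2_3 and 6_1). The other albumin family genes were low. AFM (afamin), on the far side of AFP in the same cluster, stood at 0.215, 6.93 and 1.30 TPM in the day 20 libraries of plates 2, 2_3 and 6_1, and GC (vitamin D-binding protein) at 3.52, 5.68 and 0.754 TPM. Both were highest in plate 2_3, where the background corresponds to 2.79 TPM.

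SERPINA1 stayed between 0.066 and 1.34 TPM through day 9. Its day 11 levels were 39.3, 13.8 and 80.5 TPM in plates 2, 5 and 6. Its day 20 levels were 4469, 163 and 2091 TPM in plates 2, 2_3 and 6_1, and all of them were above all libraries of day 11. SERPINA1 and ALB were the only members of which this was true. Together with ALB it was also one of the 2 members for which plate 2, not plate 6_1, was highest on day 20. TTR, in contrast, stood at 68.3, 198 and 65.1 TPM on day 9 (plate 2, plate 6_1, no plate), after at most 0.54 TPM on days 0 and 4. The later levels of TTR were 303, 414 and 154 TPM on day 11 (plates 2, 5 and 6) and 180, 17.8 and 751 TPM on day 20 (plates 2, 2_3 and 6_1). TTR was the only member for which plate 5 was the highest library of day 11, and its day 20 values lay on both sides of all those of day 11.

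The apolipoproteins came up by day 9. APOA1, the main protein of high-density lipoprotein, stood between 1.69 and 5.07 TPM on days 0 and 4 and at 254, 783 and 198 TPM on day 9 (plate 2, plate 6_1, no plate). Its later levels were 668, 124 and 842 TPM on day 11 (plates 2, 5 and 6) and 2080, 54.6 and 3315 TPM on day 20 (plates 2, 2_3 and 6_1). Plate 5 of day 11 and plate 2_3 of day 20 thus fell below all day 9 libraries, while the other later libraries, apart from plate 2 of day 11, were above them. APOA2, the second protein of that particle, stood at no more than 1.36 TPM on days 0 and 4 and at 68.8, 222 and 41.9 TPM on day 9. APOA2 reached 650, 311 and 741 TPM on day 11 and 979, 42.9 and 1919 TPM on day 20. Day 11 was above day 9 in all libraries for APOA2. The level of APOA1 was 3.54 to 4.71 times that of APOA2 on day 9, 0.399 to 1.14 times on day 11 and 1.27 to 2.12 times on day 20, so the ranges of the 3 days did not overlap. APOB, the structural protein of very-low-density lipoprotein and of low-density lipoprotein, stood between 1.21 and 2.23 TPM on days 0 and 4 and at 18.5, 50.7 and 32.8 TPM on day 9. APOB levels were then 104, 88.8 and 226 TPM on day 11 and 227, 30.1 and 819 TPM on day 20, and here too every day 11 library was above every day 9 library.

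The 3 fibrinogen chains did not appear in step, although the protein holds them in equal number. FGA, the alpha chain, had at most 6 reads on days 0 and 4 and stood at 15, 32.3 and 28.1 TPM on day 9 (plate 2, plate 6_1, no plate). Its levels were 23.8, 5.70 and 115 TPM on day 11 (plates 2, 5 and 6) and 379, 15.6 and 777 TPM on day 20 (plates 2, 2_3 and 6_1). FGA on day 11 lay on both sides of day 9. FGB, the beta chain, stood at 32.7, 170 and 7.14 TPM on day 9, at 171, 4.69 and 665 TPM on day 11 and at 918, 69.4 and 1437 TPM on day 20. FGB had the widest range of the 10 genes on days 9 and 11, with the highest library 23.8-fold and 142-fold above the lowest. FGG, the gamma chain, stood at 1.012, 2.03 and 0.49 TPM on day 9, at 1.75, 0.16 (3 reads) and 17.0 TPM on day 11 and at 115, 6.09 and 417 TPM on day 20. Per length, FGG reached 0.0174 to 0.0673 of the level of FGA on day 9, 0.0737 and 0.148 on day 11 (plates 2 and 6) and 0.304, 0.391 and 0.537 on day 20. Plate 5 of day 11, with its 3 reads of FGG, is left out of this comparison. FGB reached 0.254 to 5.26 times the level of FGA on day 9, 0.824 to 7.17 times on day 11 and 1.85 to 4.45 times on day 20, and these ranges overlapped. The TPM of FGB implies a gene length of 2708 bases, against 4374 bases of exons in GENCODE v44, so its level relative to the other chains depends on the annotation.

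Changes between days were tested on the counts with edgeR's quasi-likelihood test over all genes. Neighbouring comparisons share the libraries of a day. Between days 0 and 4 none of the 20964 genes tested passed an adjusted p-value of 0.05 (0% higher on day 4), while 741 had an unadjusted p under 0.05. DESeq2, scaling by library size and limma also called none, and edgeR without a filter on low counts called 64. Of the members, 4 passed the filter on low counts (AFP, APOA1, APOB and SERPINA1) and none passed the test. AFP had a log2 fold change of −1.26 ± 0.46 (SE) on day 4 against day 0, with an adjusted p of 0.885 from edgeR.

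From day 4 to day 9, 9 of the 10 members could be tested, and ALB could not for lack of counts. APOA1, APOA2, APOB, TTR, FGA, FGB and FGG were higher on day 9, 7 of the 9, where 24.3% of the 21252 genes tested were called higher. FGG, FGA, FGB, TTR and APOA2, with at most 12 reads in any library of days 0 and 4, passed the filter only through their day 9 libraries. A rise was the only call open to them, so the count of 7 is given as a description. Of the 7, only APOA1 and APOB had more than 12 reads in every library of day 4. The log2 fold change was 9.71 ± 1.67 (SE) for FGB (adjusted p = 0.002743 from edgeR), the largest of the members and the least precise. It was 8.56 ± 0.50 for FGA (adjusted p = 1.06e-05 from edgeR) and 8.29 ± 0.65 for TTR (adjusted p = 5.53e-05 from edgeR). APOA2 rose by 7.18 ± 0.79 (adjusted p = 0.000275 from edgeR) and APOA1 by 7.11 ± 0.68 (adjusted p = 0.000138 from edgeR). FGG rose by 4.64 ± 0.73 from near 0 (adjusted p = 0.001051 from edgeR) and APOB by 4.53 ± 0.35 (adjusted p = 5.08e-05 from edgeR). AFP stood apart with −0.05 ± 0.35 (adjusted p = 0.915 from edgeR), a value that changes sign with the scaling, and SERPINA1 with 0.90 ± 0.66 (adjusted p = 0.296 from edgeR). In all 7 genes called, every day 9 library lay above every day 4 library, as did 28.4% of all genes tested. In the same step POU5F1 and the other 5 pluripotency markers fell and 8 of the 11 cardiomyocyte markers tested rose.

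**Figure D2:**
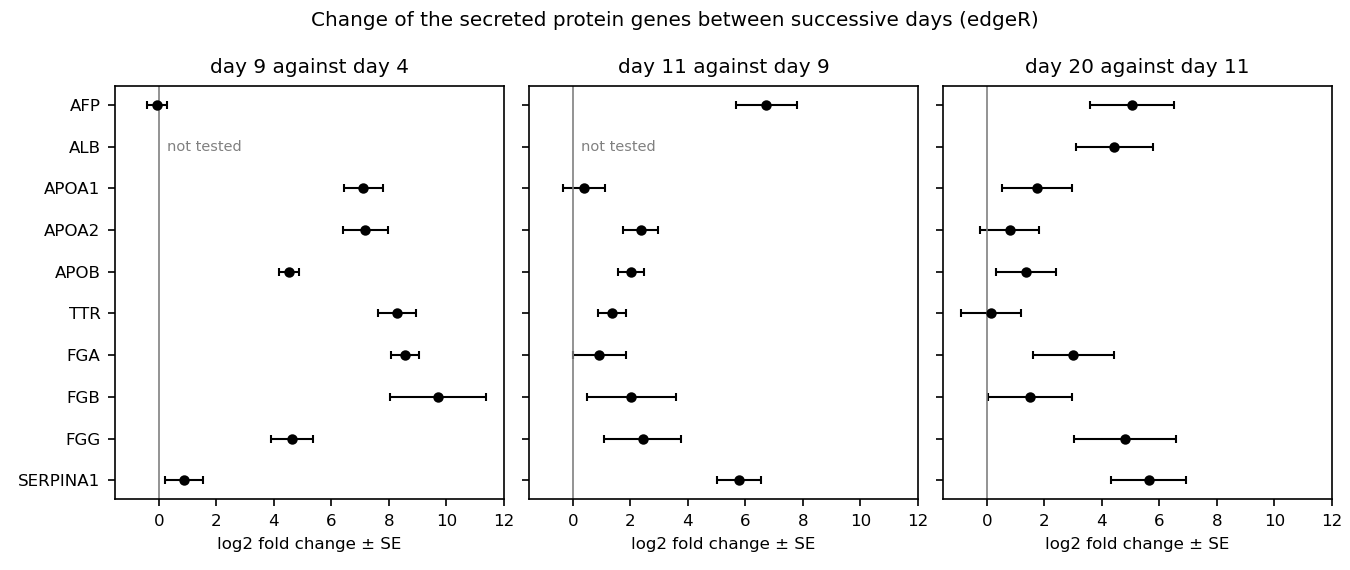
Log2 fold change of each gene between successive days (points, with bars of 1 standard error, edgeR fits of 6 libraries each). AFP and SERPINA1 lie near 0 in the left panel and near 6 in the middle panel, whereas APOA1, FGA, FGB and TTR show the opposite order. ALB was not tested in the first 2 panels.

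Days 11 and 20 were in view when the genes were chosen, so their fold changes are descriptions. From day 9 to day 11 the log2 fold change was 6.73 ± 1.05 (SE) for AFP and 5.79 ± 0.76 for SERPINA1, and both passed the threshold. That is 2 of the 9 members tested, where 1.39% of the 20679 genes tested were called higher. The other 7 had log2 fold changes from 0.41 ± 0.73 (APOA1) to 2.44 ± 1.33 (FGG), including 2.36 ± 0.61 for APOA2 and 2.02 ± 0.46 for APOB. AFP, SERPINA1, APOA2 and APOB did not overlap between the days, 4 of the 9, as did 12.2% of all genes tested in this direction. Both calls rested on each of 3 libraries. Without the day 9 library of plate 2, that of no plate number or the day 11 library of plate 2 no member passed the threshold. Calls over all genes fell as well, to 0 of 21520, 20 of 21433 and 105 of 21297 genes higher in these fits. No member passed without the filter on low counts either, and 6 did with DESeq2, which called 919 of 23640 genes higher. Without the day 11 library of plate 6 the fold changes of APOA1, FGA and FGG turned negative. From day 20 against day 11 the log2 fold change was 5.63 ± 1.30 for SERPINA1, 5.05 ± 1.47 for AFP, 4.80 ± 1.77 for FGG, 4.44 ± 1.33 for ALB and 3.00 ± 1.41 for FGA. It was lower for APOA1 (1.74 ± 1.22), FGB (1.502 ± 1.46), APOB (1.36 ± 1.03), APOA2 (0.79 ± 1.04) and TTR (0.15 ± 1.05). The sign for APOA2, APOB and TTR changed under some of the other settings. None of the 10 passed the threshold, where 1.12% of the 21398 genes tested were called higher, and 4 had an unadjusted p under 0.05. DESeq2 called 2 of them, where it called 1454 of 26912 genes higher. A fit over all 15 libraries called 4, where it called 2078 of 24767 genes higher. ALB and SERPINA1 did not overlap between the days, 2 of the 10, and 14.5% of all genes tested did not overlap in this direction. Without the library of plate 2_3 the standard errors of all but FGB were smaller and SERPINA1 passed the threshold (log2 fold change 6.19 ± 0.86), while AFP reached 5.62 ± 1.12. Against day 0, all 10 were higher on day 20, with log2 fold changes from 7.54 ± 1.27 (APOB) to 12.47 ± 1.67 (SERPINA1), where 16.1% of the 21988 genes tested were called higher, and all 10 also passed without the library of plate 2_3. The count is given as a description, from which nothing is read: ALB, APOA2, TTR, FGA, FGB, FGG and SERPINA1 had at most 14 reads in any library of day 0 and were tested because of their reads on day 20.

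How closely the other 9 genes moved with AFP was measured by the log2 ratio of their level to that of AFP (TPM + 0.1) in each of the 6 libraries of days 11 and 20. Over these libraries AFP itself spanned a factor of 396. The ratio of SERPINA1 to AFP spanned only a factor of 2.79, from a log2 ratio of −2.85 (day 11, plate 6) to −1.37 (day 11, plate 5), and its days overlapped. FGG spanned a factor of 4.06 and ALB a factor of 5.27, and in both the days overlapped as well. In plate 5 of day 11 the ratio of FGG, the lowest of its 6, rests on 3 reads and that of ALB on 4 reads. For FGA the factor was 7.18, and all 3 day 20 ratios (−5.18, −5.04 and −4.19) were below all 3 day 11 ratios (−3.28, −2.63 and −2.34). The factor was 17.2 for FGB, 32.6 for APOA1, 122 for APOA2, 150 for APOB and 883 for TTR. APOA1, APOA2 and TTR stood above AFP in at least 2 of the 3 libraries of day 11 and below it in all libraries of day 20. The log2 ratio of TTR to AFP was 3.53 in plate 5 of day 11 and −6.26 in plate 2 of day 20. SERPINA1, FGG and ALB, which stood at no more than 2.03 TPM in any library through day 9, kept the narrowest ratios to AFP. Of these, FGG had already been called higher on day 9 than on day 4. The widest ratios were those of 5 of the 6 genes that were already above 7 TPM in every day 9 library, with FGA between them. This grouping was made after the values had been seen and is a description. Plate 5 of day 11, the library with the lowest AFP, sets much of the widest spans. Without it AFP spanned a factor of 61.5, and the ratio to AFP spanned a factor of 39.6 for APOA2, 27.2 for APOB and 100.2 for TTR. Without plate 2 of day 20 the factor was 43.0 for APOB, 332 for TTR and 11.3 for FGB, without plate 6 of day 11 it was 11.1 for FGB, and without plate 6_1 of day 20 it was 3.1 for ALB. Without plate 2_3 of day 20 it was 22.9 for APOA1 and 3.7 for ALB, and unchanged for the other genes.

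**Figure D3:**
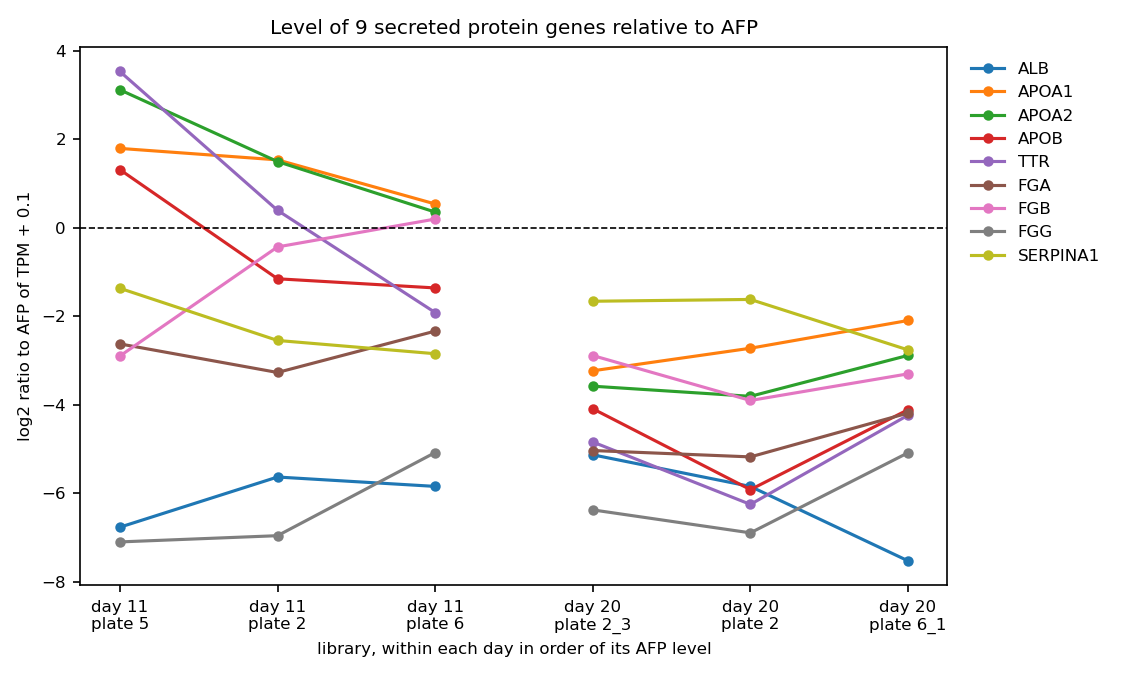
Log2 ratio of each gene to AFP (TPM + 0.1) in the 6 libraries of days 11 and 20, ordered within each day by the AFP level, with a line per gene and day. The dashed line is the level of AFP. SERPINA1 stays between −2.85 and −1.37, while TTR runs from 3.53 to −6.26.

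Within a day the libraries ranked alike for most of the genes. On day 11 the order was plate 5, plate 2, plate 6 from low to high for AFP and for all other members but TTR, which had the reverse order. Plate 5 was the lowest library for 9 of the 10 members, and for 36.8% of all genes tested between days 11 and 20. The mean of plates 2 and 6 was above plate 5 by 6.45 on the log2 scale for FGB, 5.19 for FGG, 4.49 for ALB, 3.58 for FGA and 3.50 for AFP, against 0.89 for APOB and −0.86 for TTR. The median over the members was 3.05 and over all genes tested −0.03. On day 20 plate 2_3 was the lowest library for all 10 members, and for 23.1% of all genes tested. There the mean of plates 2 and 6_1 was above plate 2_3 by 3.43 (ALB) to 5.62 (APOA1) on the log2 scale, with 4.76 for AFP, and the median over the members was 4.73, against −0.47 over all genes tested. The distance between the highest and the lowest library of day 20 (log2 CPM) was larger for AFP than for 99.5% of the 19187 genes whose mean on that day reached 1 CPM, and for the other members it was larger than for 97.9% (ALB) or more.

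The members were set against the background of plate 2_3 one by one. AFP had 2023 reads per kb there, 185 times the background. SERPINA1 stood at 58.3 times, FGB at 24.9 times, APOA1 at 19.6 times, APOA2 at 15.4 times and APOB at 10.8 times. TTR (6.39 times), FGA (5.59 times) and ALB (5.22 times) also stood above all 174 silent genes. FGG, with 86 reads or 23.9 reads per kb, was 2.18 times the background and above 168 of the 174. With the background subtracted FGG in this library changed from 6.09 to 3.30 TPM, ALB from 14.6 to 11.8 TPM and AFP from 516 to 513 TPM.

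**Figure D4:**
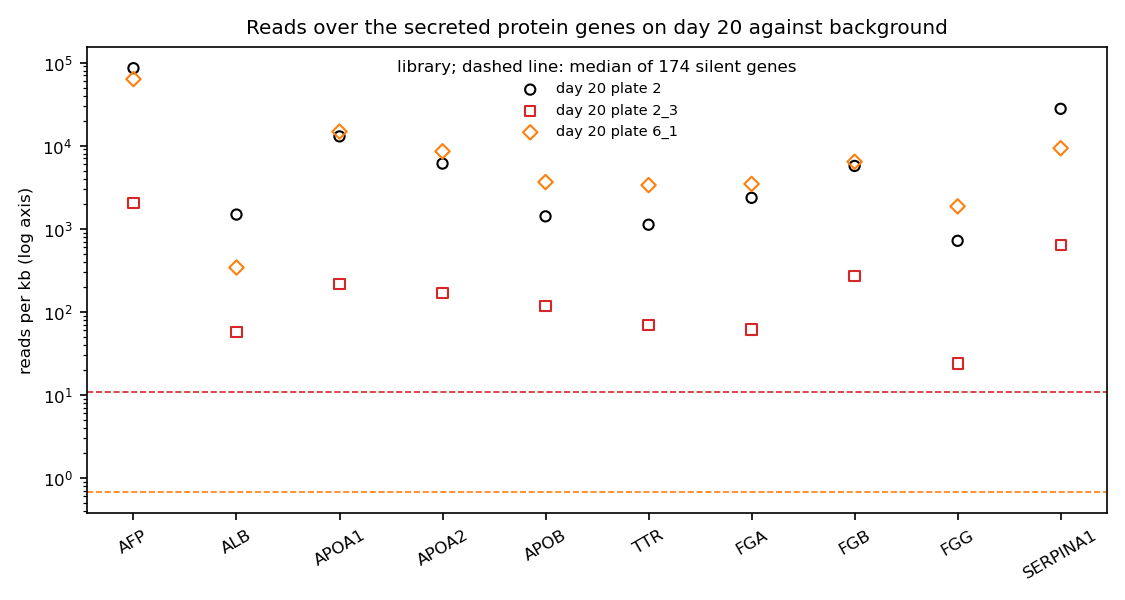
Reads per kb over each gene in the 3 day 20 libraries (log axis). The dashed lines are the median of 174 silent coding genes in plate 2_3 (10.95) and plate 6_1 (0.68). All red squares lie above the red line, FGG the nearest at 23.9.

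Markers of other cells also differed between these libraries. On day 11 the 12 cardiomyocyte markers summed to 9227 TPM in plate 2, 27411 in plate 5 and 7227 in plate 6, so the library with the lowest AFP had the highest sum, and all markers but MYL2, which was at 0 in plates 2 and 5, were above 0 in each. The 8 mesenchyme markers summed to 3629, 1529 and 7529 TPM in plates 2, 5 and 6 and had the order of AFP. Plate 5 was the lowest library for 7 of the 8, as it was for 36.8% of all genes tested, and PDGFRA, the exception, stood at 209, 282 and 161 TPM. On day 20 the cardiomyocyte sum was 27603 TPM in plate 2, 28417 in plate 2_3 and 6916 in plate 6_1, which is not the order of AFP. The mesenchyme sum was 3245, 1266 and 24540 TPM, again lowest in plate 2_3, which was the lowest library for 6 of the 8 and for 23.1% of all genes tested. The exceptions were DCN, a proteoglycan of connective tissue, and PDGFRA. The 9 epithelial markers summed to 5049, 4278 and 5905 TPM on day 11 (plates 2, 5 and 6), where plate 5 was lowest for 3 of the 9. On day 20 they summed to 3847 TPM in plate 2, 1172 in plate 2_3 and 4143 in plate 6_1, with KRT8 at 1120, 322 and 1192 TPM. Plate 2_3 was lowest for 8 of the 9, and for 23.1% of all genes tested. CLDN6, the exception, stood at 471, 336 and 151 TPM. The part of these cell markers in the levels of the secreted protein genes was not tested, nor was that of RNA integrity, which was 9.7, 6.1 and 8.8 in the 3 day 20 libraries.

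**Figure D5:**
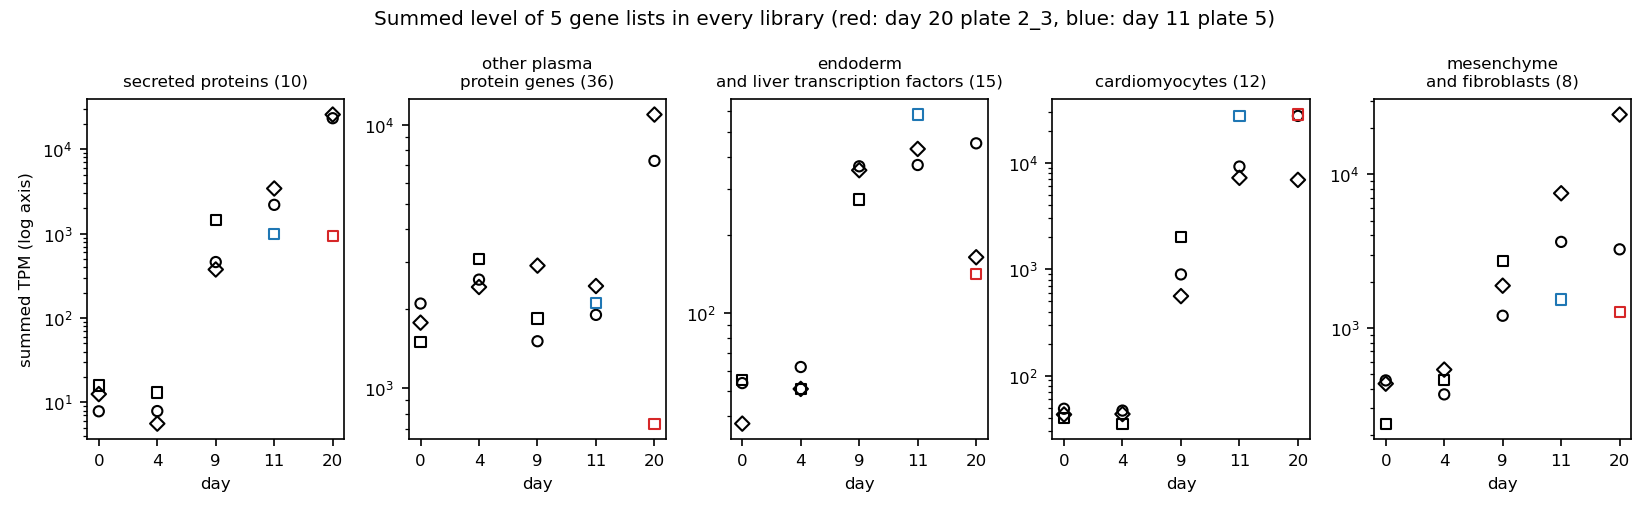
Summed TPM of the 10 secreted protein genes and of 4 other gene lists in all 15 libraries (log axis, with its own range in each panel). In the red square (day 20, plate 2_3) the secreted protein genes, other plasma protein genes and mesenchyme markers are lowest of their day while the cardiomyocyte markers are at 28417 TPM. In the blue square (day 11, plate 5) the cardiomyocyte markers are highest and the secreted protein genes lowest.

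Among the other genes, likeness to AFP was measured by the root mean square difference of log2 CPM after centring each gene. Over the 6 libraries of days 11 and 20, SERPINA1 (0.60) was nearest of all 19186 genes compared, TF, which encodes the iron carrier transferrin, was next (0.76), and ALB (0.79) and FGG (0.86) followed. The nearest genes outside the group were TF, PLG (plasminogen), AQP1 (a water channel), AGT (angiotensinogen), SERPINA6 (the carrier of cortisol), SPINK1 (a trypsin inhibitor), LIPC (hepatic lipase), SERPINA5 (an inhibitor of protein C), SULT1E1 (a sulfotransferase of oestrogens) and APOA4 (an apolipoprotein of the intestine and liver), with differences from 0.76 to 1.33 against a median of 3.16 over all genes. TF stood at 1.33, 0.38 and 2.46 TPM on day 11 (plates 2, 5 and 6) and at 139, 9.76 and 226 TPM on day 20 (plates 2, 2_3 and 6_1). Some of these genes were near the background of plate 2_3, which is 2.79 TPM. SERPINA6 stood at 3.17 TPM there, LIPC at 4.82, SULT1E1 at 4.98, PLG at 5.315 and SPINK1 at 6.20, and the others at 9.76 (TF) or more. The ranking was not repeated without this background or this library. FGA ranked 8, FGB 24, APOA1 132, APOB 380, APOA2 1080 and TTR 13939. Over all 15 libraries SERPINA1 (1.10) and ALB (1.19) were again nearest, and the 10 nearest other genes were AQP1, TF, DCN, A2M, AHSG, SLN, KLHL41, SERPINA6, CSRP3 and LRRC10, of which 3 were shared with the list of days 11 and 20. SLN, KLHL41, CSRP3 and LRRC10 are muscle genes. FGG ranked 16 and TTR 2479 in that comparison. These differences are a description, since all genes share the same libraries and their depth.

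The 36 other plasma protein genes were counted in the same comparisons. From day 4 to day 9, 14 of the 19 tested rose and 2 fell (24.3% of all genes rose). Those that rose included MTTP, which loads lipid onto APOB (log2 fold change 5.86 ± 0.33, adjusted p = 1.08e-05 from edgeR), F2, which encodes prothrombin (5.35 ± 0.29, adjusted p = 5.13e-06 from edgeR), and RBP4, the retinol carrier that binds TTR (4.26 ± 0.36, adjusted p = 4.28e-05 from edgeR). CP, the copper carrier ceruloplasmin, fell by 2.34 (adjusted p = 0.005014 from edgeR), and SERPINA5 fell too. From day 9 to day 11, 3 of 21 rose (APOM, HPX and VTN), where 1.39% of all genes did, and none fell. From day 11 to day 20, 7 of 31 rose (APOH, CP, HRG, KNG1, SERPIND1, ITIH2 and FETUB), where 1.12% of all genes did. Without the library of plate 2_3, 16 of 31 did so, where 355 of 21682 genes did, adding AHSG, TF, APOA4 and APOC3 among others. APOH, HRG, KNG1 and FETUB stood at 0 to 0.12 TPM in the libraries of day 11, so they were tested because of their reads on day 20. HRG was highest in plate 2_3 itself, at 5.74 TPM against 0.70 in plate 2 and 0.71 in plate 6_1. APOH stood at 7.74, 5.55 and 7.59 TPM in plates 2, 2_3 and 6_1, where the background of plate 2_3 is 2.79 TPM. KNG1 was at that background in plate 2_3. AHSG, the fetal carrier fetuin-A, stood at 2.75, 0.082 and 4.89 TPM on day 11 (plates 2, 5 and 6) and at 1372, 24.4 and 2146 TPM on day 20 (plates 2, 2_3 and 6_1).

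The transcription factors of endoderm and liver were higher on day 9 than on day 4 in 10 of the 14 tested, where 24.3% of all genes tested were called higher. The 10 included FOXA1, FOXA2, HNF4A, HNF4G, SOX17, HHEX, CEBPA and PROX1, with log2 fold changes from 1.03 ± 0.25 (HNF4G) to 9.97 ± 0.70 (SOX17). FOXA1, FOXA2, HNF4A and SOX17 stood at 0 to 0.258 TPM in the libraries of day 4. These genes were tested because of their reads on day 9, so a rise was the only call open to them. From day 9 to day 11 ONECUT1 rose by 3.69 ± 0.47 (adjusted p = 0.01767 from edgeR), HNF4G rose by 1.74 ± 0.27 (adjusted p = 0.02317 from edgeR) and SOX17, a factor of early endoderm, fell by 2.80 (adjusted p = 0.024 from edgeR). HNF4A stood at 25.1, 35.1 and 14.6 TPM on day 9, at 33.6, 14.2 and 59.9 TPM on day 11 and at 32.9, 6.56 and 26.4 TPM on day 20. Its order over the libraries of day 11 was that of AFP, whereas the summed level of the 15 factors was 372, 581 and 428 TPM in plates 2, 5 and 6. Plate 5 thus had the highest sum, and it was the lowest library for 4 of the 15, against 36.8% of all genes tested. HHEX was the largest part of the sum, with 130, 277 and 149 TPM in plates 2, 5 and 6. On day 20 the sum was 450 TPM in plate 2, 141 in plate 2_3 and 164 in plate 6_1, so plates 2 and 6_1, which were alike in AFP, differed in it. ZBTB20 and ZHX2, known repressors of AFP after birth, both rose from day 4 to day 9 (1.54 ± 0.22, adjusted p = 0.000614, and 0.94 ± 0.16, adjusted p = 0.00171, from edgeR). On day 20 ZHX2 stood at 64.2, 43.1 and 42.6 TPM and ZBTB20 at 10.4, 11.7 and 7.49 TPM in plates 2, 2_3 and 6_1. Both were above all libraries of day 11 (at most 24.9 and 3.97 TPM), as were 14.5% of all genes tested. Without the library of plate 2_3 neither passed the threshold in that step (log2 fold change 1.28 ± 0.24 for ZHX2 and 1.49 ± 0.33 for ZBTB20).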

How the data were processed

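The libraries of H1 cells from days 0, 4, 9, 11 and 20 were grouped by their labels. The authors aligned paired reads to hg38 with STAR 2.5.2b and deposited raw counts per gene from featureCounts 1.5.1, together with TPM, from which gene lengths were worked back. The deposited sample table lists the lane, an RNA integrity score for every library and, as a fraction, how many reads mapped uniquely. The members and gene lists were chosen with earlier results of these data known.

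Counts of the 6 libraries of each pair of days were fitted with edgeR 4.0.16 (R 4.3.3, TMM, robust quasi-likelihood test without covariates). Genes were kept by filterByExpr, set to 10 reads as the minimum and 15 as the least total. Two-sided p-values were adjusted by Benjamini and Hochberg's method across every gene in a fit, and 0.05 was the threshold. Standard errors were the fold change over the square root of F. P-values measure the spread between libraries labelled as biological replicates, with 11990302 to 33469703 counts each. Ratios to AFP used a pseudocount of 0.1 TPM. Genes named were the 10 members, genes of the written lists (among them 36 other plasma protein genes, 15 transcription factors and cell type markers) and the 10 genes nearest to AFP. The alternatives were DESeq2 1.42.0, library size scaling, no filter, all 15 libraries, limma 3.58.1 on log2 TPM after adding 1, plate and lane blocks and each replicate left out. Ranges of the ratios to AFP with 1 library left out were added after seeing the data. Promoters come from RefSeq (GRCh38.p14) and gene positions from GENCODE v44. Results for some genes of the lists are not reported here.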

Additional observations from a re-analysis of the deposited data

How the results depend on the processing

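The count of members past the threshold kept within 1.5 times its value under every alternative from day 4 to day 9 (6 to 7 members) and from day 0 to day 20 (10 members). Between days 0 and 4 it was 0, and 1 without the filter, AFP, which was lower on day 4. From day 9 to day 11 it was 2, against 6 with DESeq2, 0 without the filter and 4 with lanes as a block, and 0 to 3 with 1 library left out. Of all genes, DESeq2 called 919 of 23640 higher there, and the fit with lanes as a block 425 of 20679. With 1 library left out, 0 to 287 of all genes were called higher in that step. From day 11 to day 20 it was 0, against 2 with DESeq2 and 4 with all 15 libraries, and 0 to 1 with 1 library left out. Of all genes, DESeq2 called 1454 of 26912 higher in that step, and the fit of all 15 libraries 2078 of 24767. With 1 library left out, 0 to 355 of all genes were called higher there. The median of all genes from day 11 to day 20 was 0.84 (log2) with DESeq2 and 0.80 without the filter, against 0.07 in the fit reported and −0.008 to 0.135 in the others.

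Same-plate libraries correlated in their deviations from the day means with r of 0.156 and 0.39 for days 9 and 11, and of −0.192, 0.008 and 0.395 for days 11 and 20. With fewer than 3 same-plate pairs or a pair under 0.1, plates were not taken as pairing. With plate as a replicate block 4 members passed from day 9 to day 11 (1171 genes in all were called higher and 800 lower, against 288 and 207), 0 passed from day 11 to day 20 (2 genes higher and 1 lower, against 239 and 93), and the log2 fold change of TTR was −0.24 in the latter.

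Other log2 fold changes that turned sign were those of AFP from day 4 to day 9 (0.026 with library size scaling, 0.004 with lanes as a block, −0.30 to 0.33 with 1 library left out) and, with 1 library left out from day 9 to day 11, APOA1 (−0.079 to 1.17), FGA (−0.83 to 1.45) and FGG (−0.30 to 3.01). From day 11 to day 20 they were APOA2 (−0.29 with limma, −0.20 to 1.36 with 1 library left out), APOB (−0.20 to 1.92) and TTR (−0.975 with limma, −1.05 with lanes as a block, −1.595 to 0.72 with 1 library left out). The causes were not tested. Of the fold changes under alternatives, 424 kept their direction and side of the threshold, 15 gained a call, 10 lost one and 16 changed sign.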

Other observations

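The 4 endoderm uptake receptors, which take up proteins from the yolk sac cavity and from kidney filtrate, all rose from day 4 to day 9 by edgeR, where 24.3% of all genes tested did. The log2 fold change was 5.88 ± 0.80 (SE) for CUBN, 4.51 ± 0.32 for DAB2, 3.60 ± 0.28 for LRP2 and 2.99 ± 0.27 for AMN. None of them passed the threshold from day 9 to day 11 or from day 11 to day 20. Plate 5 of day 11, the library with the lowest AFP of its day, was the lowest for all 4, as it was for 36.8% of all genes tested. Their sum there was 59.7 TPM, against 105 in plate 2 and 144 in plate 6. On day 20 plate 2_3 was the lowest library for 2 of the 4, as it was for 23.1% of all genes tested. The day 20 sums were 53.2 TPM in plate 2, 46.35 in plate 2_3 and 132 in plate 6_1, which is not the pattern of AFP, alike in plates 2 and 6_1.

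Of the 14 hepatocyte enzymes and receptors, 3 of 8 tested rose from day 4 to day 9 (CPS1, ASGR1 and ASGR2), where 24.3% of all genes tested did, and 1 of 10 from day 9 to day 11 (ARG1, the urea cycle enzyme arginase), where 1.39% did. On day 20, 8 of 12 tested lay above all libraries of day 11, as did 14.5% of all genes tested. The embryonic globin HBE1 rose by 4.11 ± 0.54 (SE) from day 4 to day 9 and ALAS2, the erythroid enzyme of haem synthesis, by 3.38 ± 0.33, the only 2 of 8 yolk sac erythroid markers that could be tested there. HBE1 stood at 0.13 to 0.699 TPM on day 4, so it was tested because of its reads on day 9. ALAS2 fell by 2.39 from day 9 to day 11. In both lists no gene passed from day 9 to day 11 without any 1 library but plate 5 of day 11. Of all genes, 0 to 287 were called higher and 0 to 286 lower in those fits.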
